A study of Homo sapiens with 6 samples.

Results

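Argonaute crosslink sites were examined in the transcripts of chromatin regulators, the proteins that write, erase, read or move histone marks, DNA methylation and nucleosomes. The members were all genes in the deposited table of crosslink sites whose symbol begins with KDM, KMT, SETD, HDAC, SMARC or ARID, or with CHD, BRD, KAT, TET or DNMT followed by a digit. This gave 150 sites in 49 genes, of 16230 sites in 4361 genes in all. The joined name of SMARCC2 and an overlapping gene, the 1 such case, does not begin with these letters and was left out. The symbols were matched to RefSeq for 49 of the 49 genes.

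The cells were HK2, an immortalised human proximal tubule epithelial line of wild-type genotype, labelled either as control or as exposed to the cytokine TGF-beta1 at 20 ng/mL for 24 h after 24 h without serum. The photoreactive nucleoside 4-thiouridine was present at 100 µM for the last 20 h, and RNA was crosslinked to protein with 365 nm light. RNA bound by Argonaute was then recovered with an antibody (PAR-CLIP) from 2 control and 2 TGF-beta1 libraries. The labels give 1 treatment protocol, with the 24 h without serum, for every library, control libraries included. No separate protocol is given for the control cells, so how they were kept beyond this is known only as the word control. The labels also do not say whether the libraries of a group came from separate cultures. The tests below therefore weigh differences against library-to-library spread, whose source, culture or preparation, is not known. The 2 IgG libraries were not analysed here.

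Argonaute proteins carry microRNAs, which pair through their seed, nucleotides 2 to 8, with short complementary stretches of messenger RNA, mostly in the 3' UTR, and lower the stability and translation of the messenger. A crosslink site is a position where thiouridine in the messenger became joined to Argonaute, usually at or beside the paired stretch. Chromatin regulators often work in complexes whose subunits are needed in set amounts. TGF-beta1 is widely used to induce fibrosis-related gene expression in kidney epithelial cells.

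The libraries held 1714445 and 1926255 reads for control and 5293208 and 3415700 for TGF-beta1. At the chromatin regulator sites, control replicates 1 and 2 had 369 and 637 crosslinked reads and TGF-beta1 replicates 1 and 2 had 644 and 696, together 2346. As a share of all crosslinked reads at listed sites this was 0.998% and 1.18% in control and 0.859% and 0.964% after TGF-beta1. The groups did not overlap, but the gap was narrow and was not tested. TET3 alone gave 61 and 119 of the reads in control and 100 and 91 after TGF-beta1, so the separation leans on 1 gene. The TGF-beta1 libraries were the deeper ones, and 12 of the 150 sites had no crosslinked read in either control library against 2 with none in either TGF-beta1 library. Over all 16230 sites the counts were 1874 and 193, so this imbalance was not particular to the chromatin regulators. Of the genes listed as markers of the proximal tubule, 1 of 17 had a site (PAX8), and so had 5 of 10 epithelial markers (KRT18, CLDN1, TJP1, JUP and CDH6). None of the 8 fibroblast, 6 endothelial and 6 leukocyte markers had one, although a gene without a listed site is not thereby shown to be silent. The summed level of the 5 epithelial markers was 34.3 and 35.6 scaled RPM (reads-per-million of the library, corrected with TMM factors) in control and 25.6 and 23.1 after TGF-beta1. Its part in the differences below was not tested. These are crosslinked reads in bulk libraries, so fewer cells of a type, less RNA per cell and less Argonaute binding cannot be told apart.

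The members were grouped by symbol, and a group name need not hold for every protein in it. The KMT and SETD genes, grouped as histone methyltransferases, formed the largest group by sites and reads. They had 10 genes, 45 sites and 28.6% of the crosslinked reads. The SMARC and ARID genes, grouped as SWI/SNF and ARID, followed with 11 genes, 23 sites and 18.2% of the reads. Many of their proteins move nucleosomes or bind AT-rich DNA. The DNA methylation genes, meaning the TET oxidases that remove methyl marks and the DNMT enzymes that place them, had 5 genes, 21 sites and 17.3% of the reads. CHD remodellers had 6 genes and 11% of the reads, the KAT acetyltransferases 2 genes and 8.78%, the bromodomain genes 5 genes and 7.93%, and the KDM demethylases 8 genes and 6.95%. The deacetylases HDAC1 and HDAC2 had 6 sites and 1.28%. The reads were unevenly spread within groups: TET3 held 371 of the 405 reads of the DNA methylation genes, and KAT6A held 201 of the 206 of the acetyltransferases. The 12 most crosslinked sites carried 45.6% of all crosslinked reads of the 49 genes. These sums count crosslinked reads over listed sites and are not levels of the messenger.

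**Figure D1:**
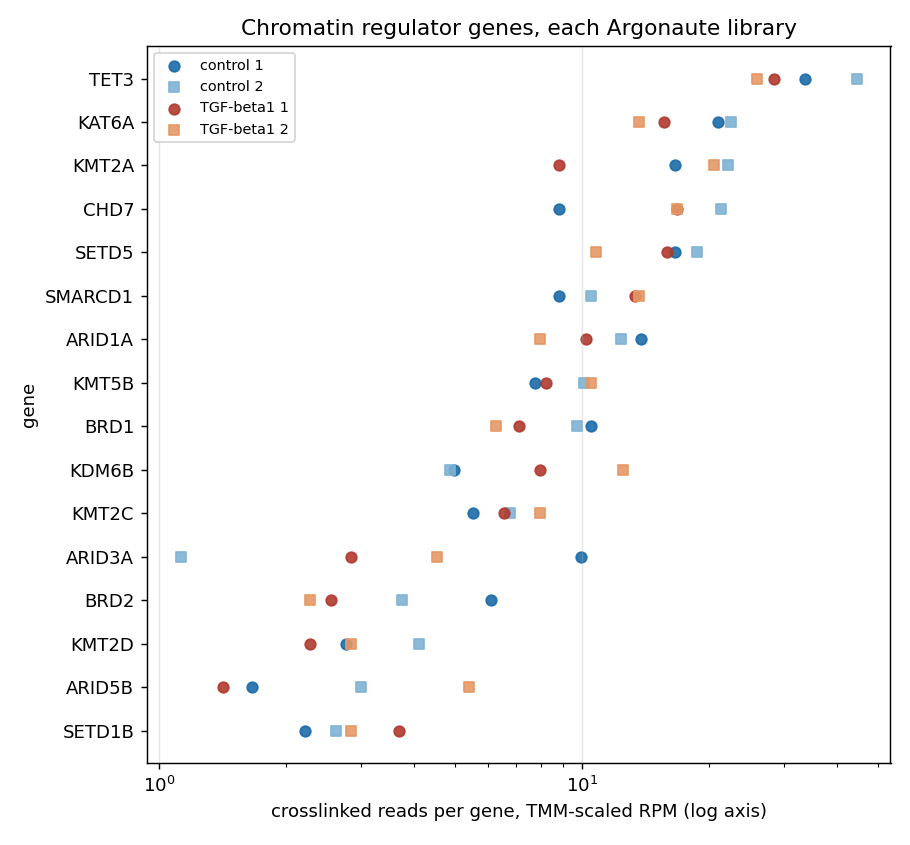
Crosslinked reads of the 16 chromatin regulator genes with the highest mean, as TMM-scaled RPM on a log axis, with 1 point for each of the 2 control (blue) and 2 TGF-beta1 (red and orange) libraries. TET3 stands highest in every library, between 25.9 and 44.6, and ARID3A spreads from 1.12 to 9.95 within the control libraries alone.

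No chromatin regulator gene passed the test between TGF-beta1 and control, and KDM6B (higher) and TET3, KAT6A, BRD1 and BRD2 (lower) had the differences described below. The test was limma on log2 of the scaled RPM with 1 added, fitted over all genes or all sites that had enough reads. Of the members, 14 of 49 genes (28.6%) and 16 of 150 sites were tested, beside 29.03% of all genes. The other 35 genes had 2 to 34 reads with a median of 11. None of the 14 genes passed an adjusted p of 0.05 in limma, while 3.08% of all 1266 tested genes did. None of the 16 sites passed either, while 7.18% of all 1059 tested sites did. At an unadjusted p under 0.05 limma gave 1 gene, KDM6B, and 2 sites, in KDM6B and SETD5, beside 13.7% of genes and 19.3% of sites overall. The quasi-likelihood test of edgeR on the recovered reads called 0 genes and 0 sites, beside 3.79% of all genes and 7.74% of all sites, with 2 genes and 2 sites at an unadjusted p under 0.05, beside 13.2% of genes and 19.1% of sites overall. With the replicate number as a block limma also called 0 of the 14 genes and 0 of the 16 sites, beside 5.06% of all genes and 11% of all sites. The groups did not overlap in 8 of the 14 genes, against 43.6% of all tested genes. The 14 log2 differences had a median of -0.23, with 6 above 0 and 8 below, against a median of 0.02 over all tested genes. Without TGF-beta1 replicate 1 the median of the 14 was 0.16, with 8 above 0, and over 3' UTR sites alone it was 0.03 in 12 genes.

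Selected sites are shown as windows of 27 nt with the crosslinked T at the 13th base. They read 5' to 3' on the strand of the transcript, in hg38 coordinates. The most crosslinked site, in KAT6A (198 reads), and the next, the miR-23 site of TET3 (150 reads), are not among them. Capitals mark the letters that the authors' annotation pairs with a microRNA seed. The first set shows the sites that the authors annotated to miR-29 in the TET genes, TET3 on chromosome 2 and TET2 on chromosome 4. All lie in the 3' UTR and on the plus strand. The windows come from the deposited table.
TET3 chr2:74105972-74105998: gtctaaataaaatGGTGCTAtggtgtt
TET3 chr2:74106017-74106043: atcctgtcttgctgaGGTGCTAtcaac
TET3 chr2:74106635-74106661: gctgctttttagttGGTGCTAacctaa
TET3 chr2:74103635-74103661: gaaatgagaatgtGGTGCTtaattttt
TET2 chr4:105277103-105277129: tgttctaagaaatGGTGCTAagaaaat
In these 5 windows the letters GGTGCT recur in different surroundings.

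The second set shows, with KAT6A and CHD7 left out, the most crosslinked annotated 3' UTR site of each further prefix that had one. It also holds some other well-read annotated sites in 3' UTRs, and the coding-sequence site of SMARCD1, the most crosslinked SMARC site.
KMT5B chr11:68156891-68156917, minus strand, miR-27: ttttcaaaaatttgCTGTGAacaacgt
KDM6B chr17:7853981-7854007, plus strand, miR-27: ttttacttccaatgctagCTGTGAccc
SETD5 chr3:9477483-9477509, plus strand, miR-27: tggacaagataatACTGTGAgtttccc
SETD5 chr3:9477347-9477373, plus strand, miR-30: tatttctttcactTGTTTACtgtaata
BRD1 chr22:49773480-49773506, minus strand, miR-30: acttgtaatctttTGTTTACaatgagg
ARID5B chr10:62093800-62093826, plus strand, miR-30: gtggtaaagttatTGTTTACaaattga
ARID3A chr19:975630-975656, plus strand, let-7: ataaaactactctCTACCTCtggctgg
KMT2A chr11:118525286-118525312, plus strand, miR-103: tcacttatagcttTGCTGCtagaacct
CHD1 chr5:98856177-98856203, minus strand, miR-148: atttaaggattatgcTGCACTGtacta
KAT7 chr17:49828479-49828505, plus strand, miR-191: aatgattgaaagtgacTTCCGTatctc
SMARCD1 chr12:50086638-50086664, plus strand, miR-196: tggctgacaaaattCTACCTcaaaggg
In the 7 nt matches of SETD5, BRD1, ARID5B and ARID3A the paired letters start on the base after the crosslinked T, and in that of CHD1 they start 3 nt after it.

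The microRNAs themselves, from RefSeq (GRCh38.p14), are given with nucleotides 2 to 8 in capitals. Of 63 microRNAs that the authors named at chromatin regulator sites, 60 were found there.
miR-29a-3p: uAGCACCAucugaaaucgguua
miR-23b-3p: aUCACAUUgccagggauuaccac
miR-27a-3p: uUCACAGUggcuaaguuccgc
miR-30a-5p: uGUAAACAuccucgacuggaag
let-7a-5p: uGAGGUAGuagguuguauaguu
miR-21-5p: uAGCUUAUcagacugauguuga
miR-103a-3p: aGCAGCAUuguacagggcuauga
miR-148a-3p: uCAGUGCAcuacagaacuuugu
miR-196b-5p: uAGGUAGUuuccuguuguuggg
miR-17-5p: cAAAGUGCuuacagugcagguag
miR-20a-5p: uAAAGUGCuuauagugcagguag
For miR-29a the authors' table lists the seed 1 nt earlier (TAGCACC) than nucleotides 2 to 8 of the RefSeq sequence, which read AGCACCA. The complement of the RefSeq seed, TGGTGCT on the transcript strand, was therefore searched in the deposited windows of 31 nt. It was present at 12 of the 150 chromatin regulator sites (8%) and at 290 of all 16230 sites (1.79%). The longer TGGTGCTA, which holds the shorter motif, was present at 5 sites, in TET3, TET2 and BRD2 (3.33%), and at 0.456% of all sites. Sites of 1 gene share their transcript, and 4 of the 12 lie in TET3.

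TET3, which oxidises 5-methylcytosine, carried 14 sites, and each lay in its 3' UTR. They spanned 4204 nt and held 371 crosslinked reads. Of these reads, 69.0% fell on 3 sites within 46 nt, at positions 74105984, 74106000 and 74106029 of chromosome 2, annotated to miR-29, miR-23 and miR-29. The middle site matched AATGTGA, the complement of the miR-23 seed, and was the most crosslinked of the 14 with 150 reads. The 4 sites annotated to miR-29 held 137 reads, 36.9% of the gene. Another site, annotated by the authors to miR-423, also had TGGTGCT in its window, whereas the miR-29 site at 74106029 did not. TET2, which has the same activity, had 3 sites and 18 reads, and its best read site was the miR-29 site printed above with 8 reads. Its coding-sequence site, annotated by the authors to miR-7 and with 3 reads, also had TGGTGCTA in its window.

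**Figure D2:**
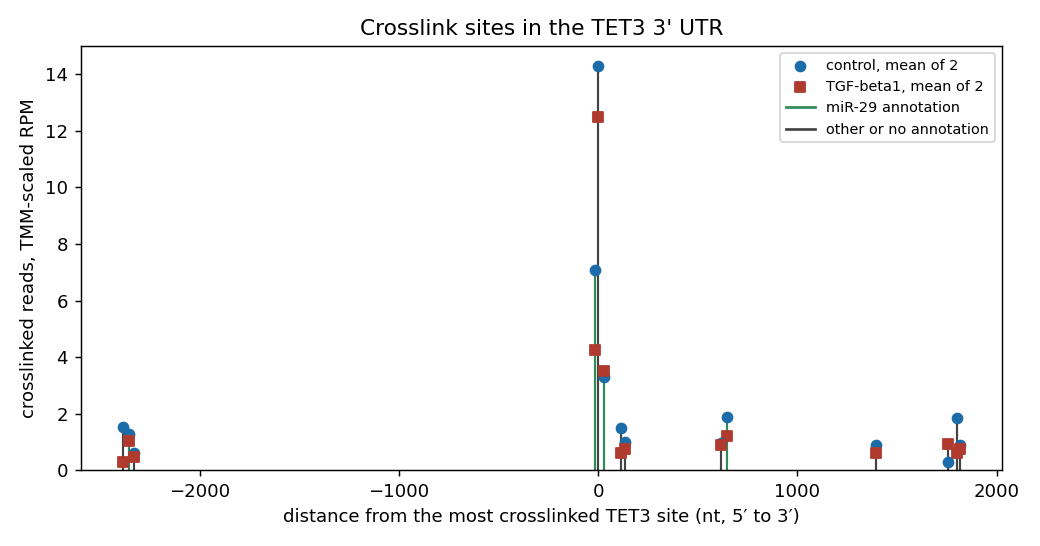
Crosslinked reads at the 14 TET3 sites, as mean TMM-scaled RPM of 2 control (blue circles) and 2 TGF-beta1 libraries (red squares), against distance in nt from the most crosslinked site; green stems mark sites annotated to miR-29. The 3 sites near 0 hold 69.0% of the reads of the gene.

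In TET3 the summed level was 33.7 and 44.6 scaled RPM in control and 28.4 and 25.9 after TGF-beta1. The mean was 39.2 ± 7.70 (SD, n = 2) in control and 27.1 ± 1.77 (SD, n = 2) after TGF-beta1, and the groups did not overlap. The log2 difference was -0.50 ± 0.24 (SE) and did not pass the test across all genes (limma, adjusted p = 0.406). It was -0.30 with control replicate 2 left out. At the site annotated to miR-23 the groups overlapped, with 15.5 and 13.1 in control and 13.9 and 11.1 after TGF-beta1. At the first miR-29 site the values were 5.53 and 8.60 in control and 3.39 and 5.14 after TGF-beta1, which did not overlap. The log2 difference there was -0.61 ± 0.46 (limma, adjusted p = 0.513), and -0.37 or -0.32 with TGF-beta1 replicate 1 or control replicate 2 left out. Site values and gene sums were scaled separately, so a site of a gene with 1 site can differ slightly from its gene value.

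The call for TET3 depended on which reads were counted. The reads listed as covering its sites were then used in place of the crosslinked ones. Their deposited sums were 225 and 310 RPM in control and 78.0 and 157 after TGF-beta1. The log2 difference was then -0.99 ± 0.34 (limma, adjusted p = 0.0370). TET3 was the only 1 of the 14 tested genes called, where 11.8% of all tested genes were called. In any library, a site without a crosslinked read had no covering read listed either. A read that spans neighbouring sites may also be counted at each of them. The 3 TET3 sites within 46 nt had 78, 86 and 79 covering reads in control replicate 1. Restricting covering reads to sites crosslinked in every library gave -0.78 (limma, adjusted p = 0.0828), which did not pass; 0 of the chromatin regulator genes did, beside 4.78% of all genes.

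The DNMT enzymes were sparsely crosslinked. DNMT3B, a de novo methyltransferase, had 0 and 0 reads in control and 2 and 6 after TGF-beta1, over a coding and an intronic site. The maintenance enzyme DNMT1 had 5 reads at an intronic site and DNMT3A had 3 at a 3' UTR site. None of these had enough reads to be tested.

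Among the histone methyltransferases, KMT2A, SETD5, KMT5B and KMT2C were tested. KMT2A, which methylates histone H3 lysine 4, had 12 of its 13 sites in the 3' UTR, and its values were 16.6 and 22.1 in control and 8.80 and 20.5 after TGF-beta1. The groups overlapped. The log2 difference was -0.47 ± 0.38, and 0.09 when TGF-beta1 replicate 1 was left out. KMT5B, which methylates histone H4 lysine 20, had a single 3' UTR site annotated to miR-27 with 107 reads. Its values of 7.74 and 10.1 in control and 8.24 and 10.5 after TGF-beta1 overlapped. KMT2C, of the same class as KMT2A, gave 5.53 and 6.75 against 6.53 and 7.97, which overlapped too.

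SETD5, a SET-domain protein, had 10 sites over 3' UTR, coding sequence and introns. Its gene sum was 16.6 and 18.7 in control and 15.9 and 10.8 after TGF-beta1, with no overlap and a log2 difference of -0.40 ± 0.30 (limma, adjusted p = 0.588). It was -0.66 with TGF-beta1 replicate 1 left out and -0.14 with TGF-beta1 replicate 2 left out. Of its sites, the miR-27 site at position 9477495 gave 5.53 and 6.54 in control and 8.62 and 4.86 after TGF-beta1, which overlapped. The miR-30 site at position 9477359, on the same 3' UTR, gave 6.64 and 3.10 in control and 1.54 and 0.857 after TGF-beta1. These did not overlap, and the log2 difference was -1.37 ± 0.58 (limma, adjusted p = 0.175), or -0.91 when control replicate 1 was left out. With covering reads this site passed, at -1.58 (limma, adjusted p = 0.0240), where 7.93% of all tested sites were called. Over sites crosslinked in every library it passed again (-1.67, limma, adjusted p = 0.00375), as did a minor TET3 site at position 74106136, beside 5.47% of all sites. The remaining methyltransferases, among them KMT2D, SETD1B, SETD2 and SETD7, had 2 to 34 reads and were not tested.

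The acetyltransferase KAT6A, the catalytic subunit of the MOZ complex, had 98.5% of its 201 reads at a 3' UTR site annotated to miR-21 through 6 nt. Its values were 21.01 and 22.5 in control and 15.6 and 13.7 after TGF-beta1, without overlap. The log2 difference was -0.54 ± 0.26 (limma, adjusted p = 0.406). Covering reads at the miR-21 site, scaled with the same factors as its crosslinked reads, overlapped. They were 23.8 and 24.4 in control and 24.6 and 22.6 after TGF-beta1. The fitted log2 difference of this site lay below 0 in each of 14 alternative settings, between -1.07 and -0.17. Those settings reuse the same libraries and are not separate support. KAT7 had 5 reads at its single site.

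KDM6B, which removes methyl groups from histone H3 lysine 27, was the tested gene with the highest log2 difference. It had a single site, a 6 nt miR-27 match in the 3' UTR that starts 6 nt after the crosslinked base. Its values were 4.98 and 4.87 in control and 7.95 and 12.5 after TGF-beta1, so both TGF-beta1 libraries lay above both controls. The fold was 2.08 and the log2 difference 0.89 ± 0.37 (limma, adjusted p = 0.294), which does not pass. It lay above 0 in each of 15 alternative settings, between 0.43 and 1.21, and was 0.59 with TGF-beta1 replicate 2 left out. The settings reuse the same libraries, so they are not separate support. The other KDM genes had 4 to 23 reads. KDM5B had 23 over 3 sites, and the only site listed for KDM1B is annotated as antisense to the gene.

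Within the SWI/SNF and ARID group, SMARCD1, a core subunit of the complex, had 94.96% of its 139 reads at the coding-sequence site printed above. The authors list it as a 6 nt match to miR-196, and the same letters extend to CTACCTC, a 7 nt match to the let-7 seed. The gene values were 8.85 and 10.5 in control and 13.3 and 13.7 after TGF-beta1, without overlap. The log2 difference was 0.45 ± 0.30 (limma, adjusted p = 0.560) and was -0.06 without TMM scaling, where the median of all genes lay at -0.45. ARID1A, the DNA-binding subunit of the complex, gave 13.8 and 12.4 in control and 10.2 and 7.97 after TGF-beta1. These did not overlap, and the log2 difference of -0.49 ± 0.31 (limma, adjusted p = 0.542) was 0.04 over its 3' UTR sites alone. The most crosslinked ARID1A site, in the 3' UTR, has no seed annotation.

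ARID3A and ARID5B, DNA-binding proteins with the same kind of domain, each had a single 3' UTR site. The let-7 site of ARID3A gave 9.95 and 1.12 in control and 2.84 and 4.55 after TGF-beta1, so the control libraries spanned the TGF-beta1 ones. Its log2 difference was -0.06 ± 0.68, and leaving out a library moved it between -1.22 and 1.12. The miR-30 site of ARID5B gave 1.66 and 3.0 against 1.42 and 5.41, which overlapped. SMARCC1, SMARCA4 and SMARCA5 had 16, 3 and 7 reads.

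The bromodomain proteins, which bind acetylated histones, included BRD1 and BRD2 among the tested genes. BRD1 gave 10.5 and 9.75 in control and 7.10 and 6.26 after TGF-beta1, with a log2 difference of -0.54 ± 0.33 (limma, adjusted p = 0.542). BRD2 gave 6.08 and 3.75 against 2.56 and 2.28, with a log2 difference of -0.76 ± 0.45 (limma, adjusted p = 0.525), the lowest of the 14, and -0.47 with control replicate 1 left out. Neither overlapped between groups. Of the 8 BRD2 sites 5 lay in coding sequence and 1 in the 3' UTR, and of the 4 BRD1 sites 3 lay in the 3' UTR.

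CHD7, a remodeller with chromodomains, had 8 sites and gave 8.85 and 21.4 in control and 16.8 and 16.8 after TGF-beta1. The control libraries enclosed the treated ones, and the log2 difference was 0.26 ± 0.38, or -0.32 when control replicate 1 was left out. CHD1, CHD2, CHD3, CHD8 and CHD9 had 4 to 19 reads. The deacetylases HDAC1 and HDAC2 had 11 and 19 reads, at 2 and 4 sites that all lay in coding sequence.

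**Figure D3:**
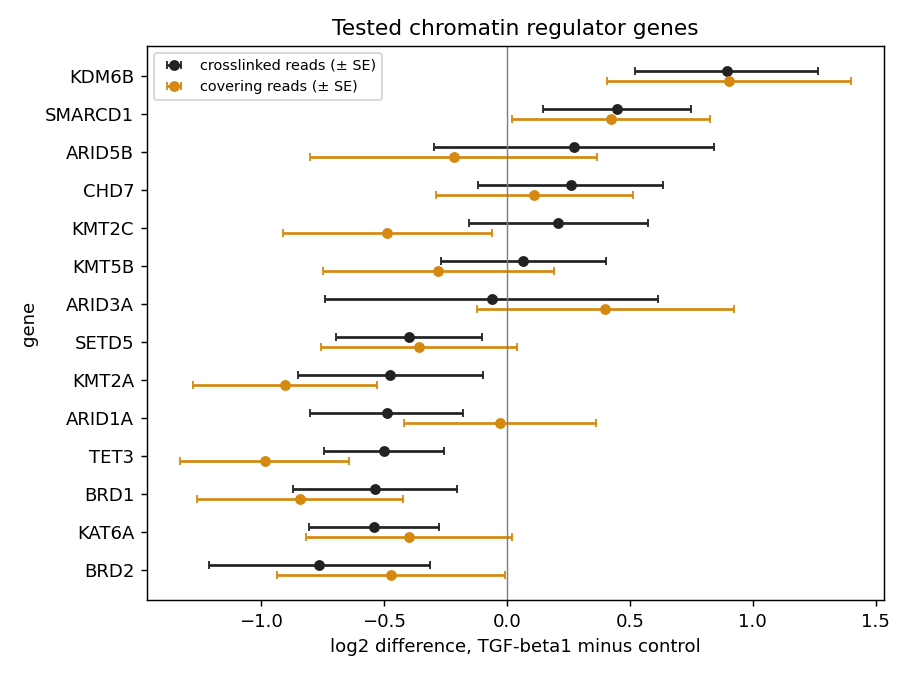
Log2 difference (TGF-beta1 minus control, on scaled RPM with 1 added) of the 14 tested chromatin regulator genes, with bars of 1 SE, from crosslinked reads (black) and covering reads (orange). KDM6B is highest at 0.89 and BRD2 lowest at -0.76 from crosslinked reads; TET3 reaches -0.99 from covering reads.

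The 150 sites lay in the 3' UTR at 79 positions (52.7%, 95% Wilson interval 44.7 to 60.5), in coding sequence at 37, in introns at 30 and elsewhere at 4. Over all sites 39.01% lay in the 3' UTR. Sites elsewhere made up 12.7% of all sites and 2.67% of these, so the comparison is between unlike mixes of sites. Of the crosslinked reads of the chromatin regulators, 77.2% and 81.2% were in the 3' UTR in control and 76.2% and 77.7% after TGF-beta1. The groups overlapped, with means of 79.2% ± 2.78 and 77.0% ± 1.05 (SD, n = 2, exact permutation test, two-sided p = 0.667, where 0.333 is the smallest p possible). By covering reads the difference was -9.90 percentage points instead of -2.21, which was not tested. Covering reads can pile up at 1 site. The intronic CHD3 site had 22 and 0 covering reads in control and 145 and 0 after TGF-beta1. Its crosslinked reads were 1 and 0 in control and 3 and 0 after TGF-beta1. Over all sites the mean 3' UTR shares of crosslinked reads were 62.7% in control and 58.1% after TGF-beta1. There 11.9% and 12.9% of reads lay elsewhere, against 1.05% and 1.41% for the chromatin regulators. Methyltransferases had 31 of 45 sites in the 3' UTR and DNA methylation genes 17 of 21. SWI/SNF and ARID genes had 8 of 23 there and bromodomain genes 7 of 23, with 10 in introns. Counts per group were not tested, since sites of 1 gene are not independent.

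**Figure D4:**
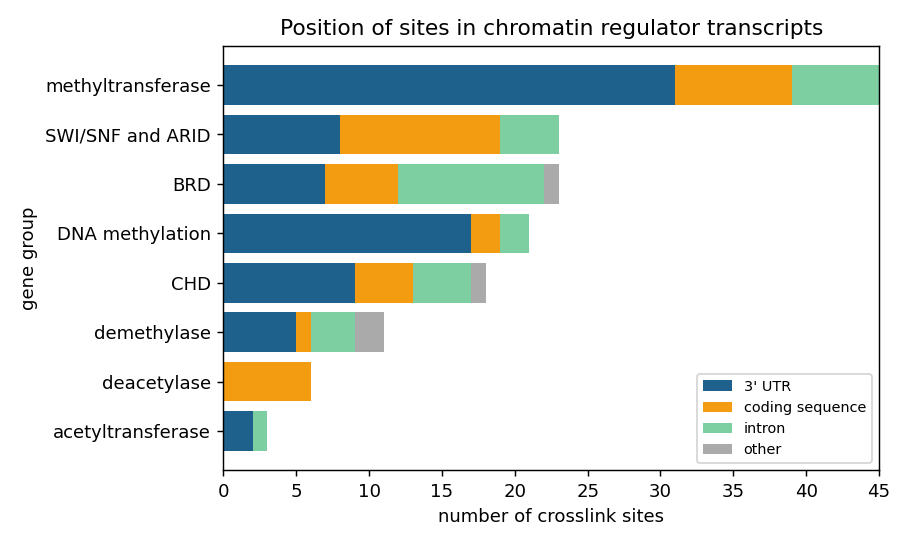
Number of crosslink sites in each chromatin regulator group, divided by position in the transcript. Methyltransferases have 31 of 45 sites in the 3' UTR, and deacetylases have all 6 in coding sequence.

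Of the 79 sites in 3' UTRs, 57 had a seed annotation by the authors (72.2%, 95% Wilson interval 61.4 to 80.8), close to the 73.2% of all 3' UTR sites. A match of at least 7 nt was listed at 27 of them (34.2%), and at 28.3% of all 3' UTR sites. The 14 chromatin regulator 3' UTR sites with a 7 nt match next to the crosslink had a median of 32 crosslinked reads. The 22 sites without annotation had a median of 8.5. Over all 3' UTR sites the medians were 18 and 7. Wilson intervals and read counts cover counting error only.

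The miR-27 seed was annotated at the most sites, 11 in 10 genes (7.33% of sites, against 5.03% of all sites), among them KMT5B, KDM6B, SETD5, KMT2A and ARID1A. These sites held 15.7% of the crosslinked reads of the chromatin regulators, against 7.53% for that seed over all sites. The miR-29, miR-30-5p and let-7 seeds each had 9 sites, in 6, 8 and 9 genes. For miR-29 the genes were TET3, TET2, BRD2, SETD5, CHD7 and ARID2 (6% of sites, against 2.43% of all). The miR-21 seed had 3 sites and 8.95% of the reads, with 198 of 210 reads at KAT6A. The shares are descriptions of these 150 sites, and members with many sites weigh more.

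**Figure D5:**
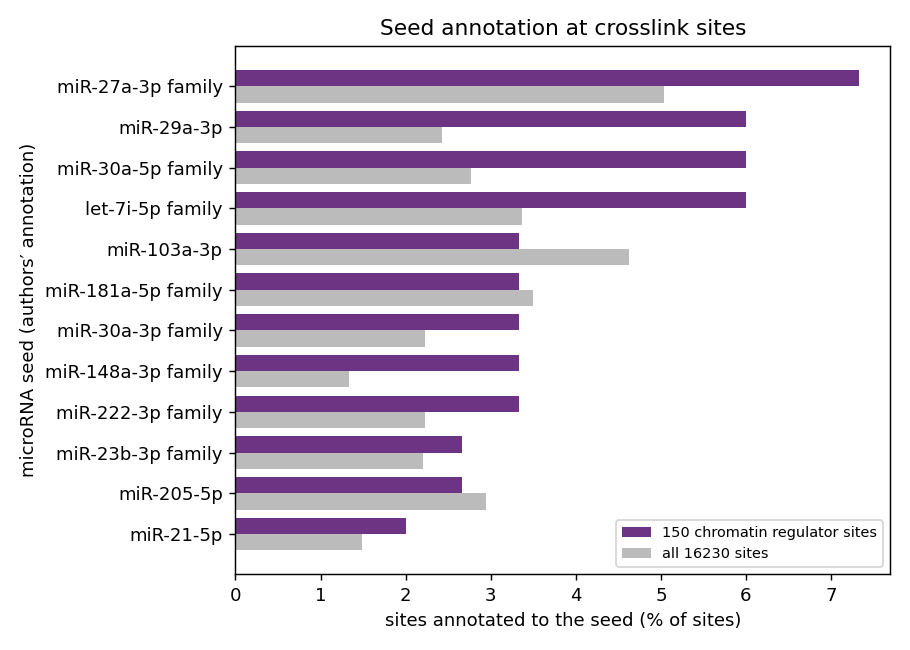
Share of sites annotated to each of the 12 microRNA seeds most frequent at chromatin regulator sites, in percent of the 150 chromatin regulator sites (purple) and of all 16230 sites (grey). The miR-27 seed reaches 7.33% against 5.03%, and the miR-103 seed 3.33% against 4.63%.

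The title of the study names miR-17 and miR-20a, which share the seed AAAGUGC. Among the chromatin regulators this seed was annotated at 2 sites, both 7 nt matches in 3' UTRs that start on the base after the crosslinked T.
ARID4B chr1:235168365-235168391, minus strand: ttggcacttaagtGCACTTTtttatga
CHD9 chr16:53326023-53326049, plus strand: ccgttttgaaaatGCACTTTgaataat
The site of ARID4B, a subunit of a deacetylase complex, had 1 and 13 crosslinked reads in control and 2 and 5 after TGF-beta1. The site of CHD9, a chromodomain remodeller, had 2 and 6 in control and 1 and 5 after TGF-beta1. In both genes the groups overlapped at the site, and neither had enough reads to be tested.

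Other chromatin genes came from a list of 149 symbols outside the name rule. The list included second names of some of its genes and an older name of the member KMT5B, so it held fewer distinct genes. It held Polycomb, heterochromatin, chaperone, cohesin and HMG proteins, histone-modifying enzymes and complex subunits, among others. The list had 393 sites in 82 genes. Of these 82 genes, 33 were tested and none passed in limma, beside 3.08% of all tested genes. At an unadjusted p under 0.05 limma gave 3 of the 33, beside 13.7% of all tested genes. The median log2 difference of the 33 was 0.04. The most crosslinked were CBX5, a heterochromatin protein, HMGB2, MSL2, HMGA2 and GATAD2B. CBX5 gave 73.0 and 77.6 in control and 74.1 and 60.9 after TGF-beta1. HMGA2, an architectural protein and known let-7 target, gave 16.6 and 13.9 against 26.1 and 25.9, with a log2 difference of 0.74 ± 0.26 (limma, adjusted p = 0.204). The other genes at an unadjusted p under 0.05, named after their values were seen, were JARID2, a Polycomb cofactor, at 0.95 ± 0.35 (limma, adjusted p = 0.234) and BCL7A, a SWI/SNF subunit, at -0.995 ± 0.39 (limma, adjusted p = 0.262).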

How the data were processed

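The deposited table lists, per the file headers, crosslink positions in hg38 with GENCODE release 27 features, microRNA seed annotation, and crosslinked and covering reads-per-million (RPM) for each of 4 Argonaute libraries. Per the submitters' processing notes the tools were bcl2fastq 2.20.0.422, STAR 2.7.1a and bedtools; the crosslink caller is not given in the sources used here. A deposited score, the microRNA RPM of each seed, was read but supports no result. The table has 4 further columns of per-sample values, which were not used.

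The RPM values are whole multiples of 1 read: 100% of values came out whole within 0.1 read, which gave read counts and library depths. Crosslinked RPM was summed per gene, scaled by TMM factors (0.665 to 1.38 for genes), and tested as log2(RPM + 1) with limma 3.58.1 (lmFit, eBayes with trend, Benjamini-Hochberg) after the edgeR 4.0.16 filter with a minimum count of 10. A fold on this scale understates the change of low genes. The fit covered all genes or all sites and was tested on simulated data. Alternatives were other pseudocounts, no TMM, no filter, no trend, edgeR and DESeq2 1.42.0 on the recovered reads, covering reads, a replicate block, 3' UTR sites only and leaving out each library; covering reads over sites crosslinked in every library was added after seeing the data. Analyses used R 4.3.3 and Python 3.11.15.

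The genes named are the 20 with the highest mean, the highest of each prefix, any that passed, and the 5 highest and 5 lowest log2 differences; the sites are those that passed, the 12 most crosslinked and the best annotated 3' UTR site of each prefix. The SETD5 site at 9477359, the TET2 site, the miR-17 family sites and the sparsely read genes were named after their values were seen. Members and lists were chosen with earlier results of these data known. Sequences on chromosome 8 are not shown. A gene that the rule names is not reported here.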

Additional observations from a re-analysis of the deposited data

How the results depend on the processing

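The depth was 1714445 to 5293208 reads per library, and with 2 libraries a group 35 of 49 genes and 134 of 150 sites could not be tested. Of 390 recomputed values, 336 kept their direction and side of the threshold and 51 changed sign. No chromatin regulator gene or site had passed in the main test, so a change of sign could not affect a call there. Of the chromatin regulator genes, 0 passed in every alternative except covering reads, where 1 did (TET3, -0.99); of the sites, 0 passed except with covering reads (1, SETD5 at 9477359) and with covering reads over sites crosslinked in every library (2, the same SETD5 site at -1.67 and a TET3 site at 74106136). That last alternative was chosen after seeing the data. TET3, KAT6A, SETD5, BRD1 and KDM6B kept their direction in 15 of 15 settings. That count is weak support, since the groups of these genes did not overlap, so leaving out a library could hardly reverse them. Omitting the trend or adding the block leaves the log2 difference itself unchanged. These zeros say little about stability, since several alternatives called few features anywhere: without the filter 4 of 4361 genes and 0 of 16230 sites, without the trend 3 of 1266 genes and 25 of 1059 sites, and with a library left out 0 to 17 of 1266 genes and, for the TGF-beta1 libraries, 3 and 5 of 1059 sites (102 and 116 for the control libraries). Among the chromatin regulators, leaving out a library gave 0 genes and 0 sites.

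Without TMM scaling the median of all genes moved to -0.45 and that of sites to -0.51, and the values became -0.25 (CHD7, sign changed), -0.055 (SMARCD1), -0.42 (KMT5B), -0.26 (KMT2C) and -0.076 (ARID5B); at sites they became -0.020 (SMARCD1), -0.42 (KMT5B), -0.49 (SETD5 at 9477495), -0.32 (CHD7), -0.42 (ARID3A) and -0.30 (TET3 at 74106029). With covering reads the sign changed for KMT5B (-0.28), KMT2C (-0.49), ARID3A (0.40) and ARID5B (-0.22), and at the sites of KMT5B (-0.041), SETD5 at 9477495 (-0.34), ARID1A (0.41) and TET3 at 74106029 (-0.80). With covering reads over sites crosslinked in every library it changed for CHD7 (-0.081), ARID1A (0.28), KMT5B (-0.10), KMT2C (-0.23), ARID3A (0.56) and ARID5B (-0.074), and at the sites of KMT5B (-0.14), SETD5 at 9477495 (-0.44), ARID1A (0.31) and TET3 at 74106029 (-0.90). Over 3' UTR sites only, ARID1A was 0.037 and ARID3A 0.016; with no filter ARID3A was 0.055. The ARID3A site was -0.47 with DESeq2, -0.39 with edgeR and -0.11 with a pseudocount of 5, and the TET3 site at 74106029 was -0.020 with edgeR. The cause was not tested for any of these.

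Leaving out each library in turn gave ranges of -1.04 to 0.093 (KMT2A), -0.32 to 0.85 (CHD7), -0.10 to 0.24 (KMT5B), -1.22 to 1.12 (ARID3A) and -0.43 to 1.00 (ARID5B), and at sites of -0.27 to 0.47 (SETD5 at 9477495), -1.17 to 1.22 (ARID3A), -0.64 to 0.95 (TET3 at 74106029) and -0.22 to 0.69 (CHD7). The share of chromatin regulator 3' UTR sites with a seed annotation was 83.3% among sites with at least 20 reads and 34.2% for matches of at least 7 nt, against 72.2%. With the replicate number as a block, 0 chromatin regulator genes and 0 sites passed in limma; the deviations of same-numbered libraries correlated at 0.131 over genes and 0.117 over sites, and with 2 numbers per group the samples were not treated as pairs.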
